A study of Mus musculus with 12 samples.

Results

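This account covers 4067 regions of acetylated histone H4 (H4ac) that every MLX-DN library listed and that only 1 or 2 of the 3 MLX-WT libraries listed. They were chosen from the peak lists themselves. Overlapping or touching peaks of the 6 H4ac lists were joined, which gave 31891 union regions, and an overlap of 1 bp with any peak of a library counted as a listing by that library. Members made up 12.8% of all union regions and 44.6% of the 9119 regions that all 3 MLX-DN libraries listed. Since the rule counted listings in both groups, no difference between MLX-DN and MLX-WT at these regions was tested, and such values are descriptions.

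The libraries came from the established mouse myoblast line C2C12 carrying a lentiviral MLX-DN or MLX-WT construct. The labels do not spell out DN, and a field of the MLX-DN samples calls them MLX down. Peak names in both groups carry a tag for glucose. Each group had 3 H4ac libraries, with input chromatin labelled as the control of the experiment, and the labels do not say whether replicates were separate cultures or whether a transduced line was a clone. The labels' protocol also mentions empty vector and non-targeting shRNA controls, but the sample titles name only MLX-DN and MLX-WT libraries.

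MLX is a basic helix-loop-helix leucine zipper protein that binds DNA as a partner of MondoA or ChREBP, and these pairs switch on genes in response to glucose metabolites. Acetylation of the H4 tail loosens chromatin and is read by bromodomain proteins, and in muscle precursors as in other cells it is found at active promoters and enhancers. A peak list shows where the signal passed a caller's threshold. A region missing from a list can therefore still be acetylated at a lower level.

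The 6 lists were of unequal length, from 5385 peaks in MLX-WT replicate 1 to 24811 in MLX-DN replicate 2. ChIP depth recovered from the lists ranged from 3.299 to 3.90 reads per 250 bp window over the 6 libraries. Every list ended near a q of 0.05, with a smallest −log10 q of 1.31 to 1.35. A threshold of 0.05 is inferred from these values, since the processing notes give no settings. The smallest listed −log10 p was 3.51 to 3.74 in the MLX-DN lists. It was 4.22, 3.79 and 3.97 in MLX-WT replicates 1, 2 and 3. Reads are known at listed peaks only.

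Among the members, 1788 regions were listed by 1 MLX-WT library and 2279 by 2. Set beside them, 1945 regions of all MLX-DN libraries were in no MLX-WT list and 3107 were in all of them. The 4 classes made up 19.6%, 25.0%, 21.3% and 34.1% of the 9119 regions in that order. MLX-WT replicate 2 listed most of the members, 3411 or 83.9% (exact 95% binomial interval 82.7 to 85.0). MLX-WT replicate 3 listed 2201 members, 54.1% (52.6 to 55.7), and MLX-WT replicate 1 listed 734, 18.0% (16.9 to 19.3). Shares followed the order of list length, which was 13652, 9422 and 5385 peaks. These intervals cover counting error only. The counts rest on single libraries: with exactly 1 of the 2 remaining MLX-WT libraries required, 2274 regions were left without MLX-WT replicate 1, 2706 without replicate 2 and 3167 without replicate 3.

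The most frequent pattern was listing by MLX-WT replicates 2 and 3 without replicate 1, at 1669 members or 41.04% of all. Listing by replicate 2 alone followed, with 1250 members or 30.7%. Replicates 1 and 2 without 3 listed 492 members, replicate 3 alone 414, replicate 1 alone 124 and replicates 1 and 3 without 2 listed 118. Replicate 2 had no peak at 656 members and replicate 1 had none at 3333.

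**Figure D1:**
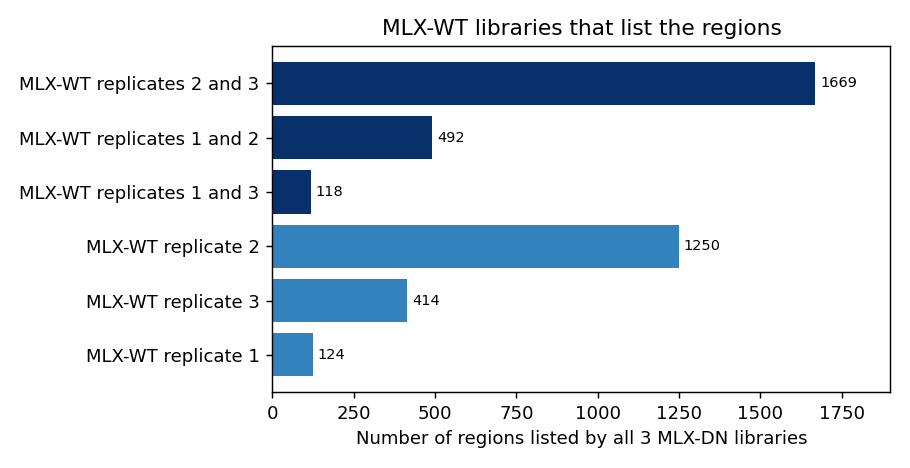
Number of members (horizontal axis) for each combination of MLX-WT libraries that list them (vertical axis); light bars are regions with 1 MLX-WT library and dark bars regions with 2. The pair of replicates 2 and 3 holds 1669 members and replicate 2 alone 1250, while replicate 1 alone holds 124.

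A region in one MLX-WT list was more often in the others. Of the 9119 regions of all MLX-DN libraries, MLX-WT replicate 1 listed 5.99% of those in neither other MLX-WT list, 26.8% of those in 1 and 65.1% of those in both. For MLX-WT replicate 2 the shares were 39.1%, 80.1% and 96.3%. For MLX-WT replicate 3 they were 17.5%, 56.5% and 86.3%. In each library the share was higher the more of the other MLX-WT lists held the region. These are the listings that the rule uses, so the shares describe them.

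Regions with 2 MLX-WT libraries ranked higher in the MLX-DN lists than regions with 1. Rank is given as the percentile of a region's highest −log10 q within its list, where 100 is the strongest peak. In MLX-DN replicates 1, 2 and 3 the median percentile was 54.1, 70.6 and 57.8 for regions with 1 MLX-WT library and 65.6, 78.5 and 67.8 for regions with 2. All 3 libraries showed the higher rank. The difference was 9.76 ± 1.79 percentile points (mean and SD over 3 MLX-DN libraries; exact sign-flip permutation test, two-sided, p = 0.25, the smallest value that 3 libraries allow). All 3 MLX-DN libraries list both classes, but their peaks help set the merged regions in which an MLX-WT peak counts as a listing. The split is therefore not independent of the MLX-DN peaks, and the p does not allow for this. The 3 libraries also share the same regions, so their differences are not independent of the choice of regions. Ranked by the authors' fold in place of q, the difference was 4.22 points, again in the same direction in 3 of 3 libraries. The spread within each class was wide. In MLX-DN replicate 1 the middle 50% of regions with 1 MLX-WT library lay between percentiles 30.2 and 71.8, and those with 2 between 44.6 and 81.7. With MLX-WT replicate 1, 2 or 3 left out, regions of both remaining MLX-WT libraries, which then include those of all 6, ranked 18.2, 17.3 and 18.4 points above regions of 1.

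The same order held on both sides of the members. Regions in no MLX-WT list had a median percentile of 44.3, 58.1 and 47.9 in MLX-DN replicates 1, 2 and 3, below both classes of members in each library. Regions of all 6 libraries had medians of 84.3, 90.1 and 85.4, above both. The step from 0 to 1 MLX-WT library was 10.8 ± 1.52 points (mean and SD, n = 3), close to the step from 1 to 2. The step from 2 to 3 was larger on average, at 16.0 ± 3.85 points. In MLX-DN replicate 2 it was 11.6 points, against 12.5 for the step from 0 to 1.

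In the MLX-WT lists members ranked below the middle when a single library listed them. The median percentile for regions with 1 MLX-WT library was 30.4, 43.4 and 37.7 in MLX-WT replicates 1, 2 and 3. For regions with 2 it was 42.9, 60.6 and 51.6, a difference of 14.5 ± 2.35 points (n = 3), which the listing itself helps to set. Of the regions that MLX-WT replicate 1 alone listed, 42.7% lay in the lowest 25% of its list and 4.03% in the highest 25%. The lowest 25% held 26% of the 1250 regions that replicate 2 alone listed and 31.2% of the 414 of replicate 3 alone, and the highest 25% held 12.9% and 11.6%. For regions of all 6 libraries the shares in replicates 1, 2 and 3 were 16.6%, 3.70% and 8.40% for the lowest 25% and 37.3%, 66.2% and 52.01% for the highest. Ranked by fold, the MLX-WT difference was −0.90 points, with 1 of 3 libraries higher, so the order seen by q was not seen by fold.

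Members with 2 MLX-WT libraries were also broader in the MLX-DN lists. Width is the number of base pairs a library's peaks cover in the region. The median was 440, 586 and 476 bp in MLX-DN replicates 1, 2 and 3 for regions with 1 MLX-WT library and 490, 654 and 512 bp for regions with 2. The difference was 51.3 ± 16.0 bp (mean and SD over 3 libraries), with the broader class the same in all 3. A wider region can be met by more lists at 1 bp of overlap, so the split is not independent of width and the difference is a description. Where a library had to cover at least 50% of a region to list it, the difference was 5.17 ± 5.01 bp, with 2 of 3 libraries in that direction and the other at −0.50 bp. In the MLX-WT lists the medians were 309, 381 and 332 bp for 1 library and 328, 478 and 388 bp for 2. MLX-WT replicate 1 had the smallest difference, 19.0 bp, and replicate 2 the largest, 97.0 bp.

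Merged regions widened in the same order. The median union width was 669 bp with no MLX-WT library, 730 bp with 1, 796 bp with 2 and 976 bp with all. Regions wider than 1 kb made up 17.2%, 23.6%, 31.4% and 48.3%. Union width contains the MLX-WT peaks as well, so part of this order is built in. More than 1 peak of the same library lay in 7.55% to 8.28% of regions with 1 MLX-WT library and in 10.3% to 11.2% of regions with 2, over the MLX-DN lists.

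**Figure D2:**
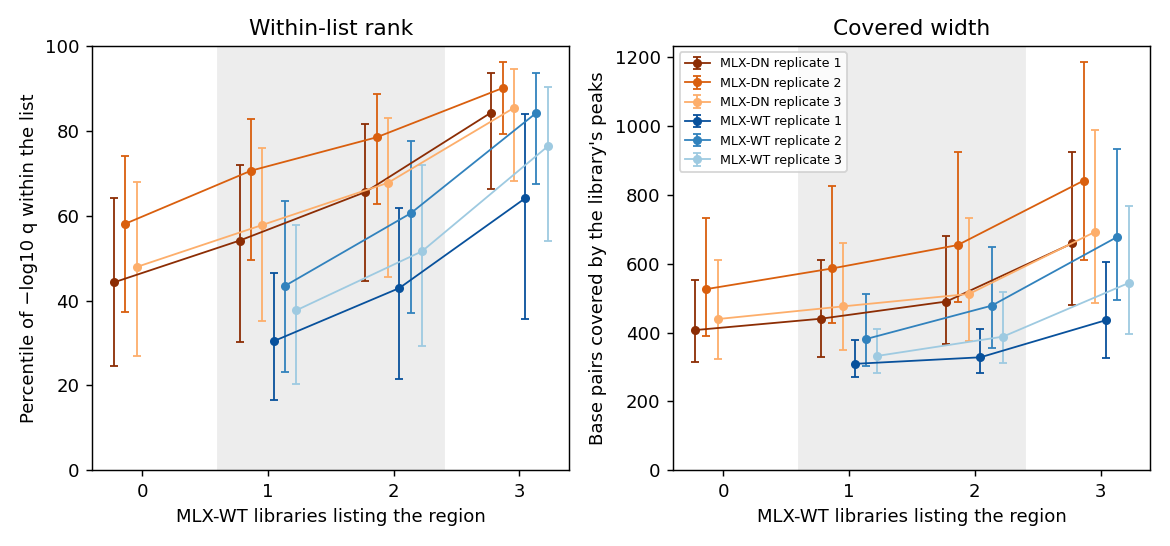
Median percentile of −log10 q within each list (left) and median base pairs covered (right) against the number of MLX-WT libraries listing the region, for regions of all 3 MLX-DN libraries. Points are single libraries, bars span the middle 50% of regions, and the grey band marks the members. In MLX-DN replicate 1 the median percentile goes from 54.1 to 65.6 and the median width from 440 to 490 bp between 1 and 2 MLX-WT libraries.

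Members were spread over nearly the whole range of MLX-DN ranks. When the 9119 regions were split into 10 equal bins by their mean MLX-DN percentile, members made up 42.9% of the weakest bin, 54.9% of the fourth and 11.1% of the strongest. Within the members the balance turned with rank. The weakest bin held 256 regions with 1 MLX-WT library and 135 with 2, and the strongest held 19 and 82. Regions of no MLX-WT list made up 52.9% of the weakest bin and 0.439% of the strongest, and regions of all 6 libraries 4.28% and 88.5%. This listing is what defined the classes, so the bins describe it and test nothing.

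**Figure D3:**
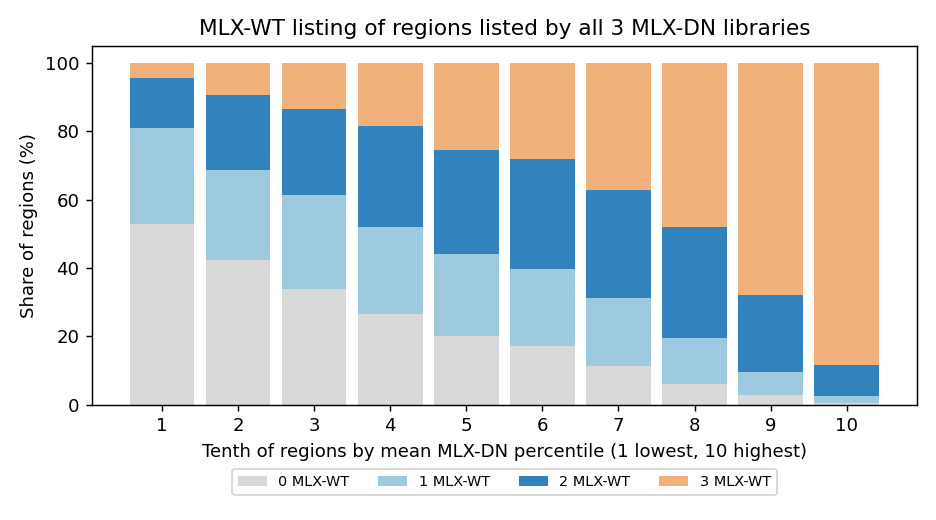
Share of regions (vertical axis, %) listed by 0, 1, 2 or 3 MLX-WT libraries in each of 10 equal bins of regions of all 3 MLX-DN libraries, ordered by mean MLX-DN percentile (horizontal axis). The 2 blue segments are the members, 42.9% of the weakest bin and 11.1% of the strongest.

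Of the smallest −log10 p values of the 6 lists, that of MLX-WT replicate 1 was the highest, at 4.22. In all 3 MLX-DN lists 4028 of the 4067 members (99.04%) had a −log10 p at or above that value. Listing by all 3 MLX-DN libraries nearly fixes this share, which was 97.4% with no MLX-WT library and 99.9% with all. Of the members 2250 (55.3%) were at or above 8.44, which is 2 times as high. Among regions with 1 MLX-WT library 822 of 1788 (46.0%) reached 8.44, and among regions with 2 it was 1428 of 2279 (62.7%). The shares in the neighbouring classes were 33.0% with no MLX-WT library and 84.6% with all.

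ChIP reads at the summit were higher at members with 2 MLX-WT libraries than at members with 1, and so was the control background, while the fold differed little. Reads were recovered from the authors' fold and p for each peak and are those in a 250 bp window. In MLX-DN replicates 1, 2 and 3 the median was 34.0, 39.0 and 37.0 reads for regions with 1 MLX-WT library and 39.0, 45.0 and 43.0 for regions with 2. Scaled to the control and divided by the genome-wide control level, this was 10.1 ± 0.109 against 11.7 ± 0.159 (mean and SD, n = 3), so the classes lay further apart than the libraries did. The difference was 1.56 ± 0.0818, with 3 of 3 libraries higher (exact sign-flip permutation test, two-sided, p = 0.25, the smallest possible). As for rank, the split is not independent of the MLX-DN peaks, and the p does not allow for this.

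The control background beneath the same MLX-DN summits was 2.49, 1.89 and 2.54 times the genome-wide level with 1 MLX-WT library and 2.87, 2.19 and 2.99 times with 2. Every library was higher in the second class, by 0.378 ± 0.0733 on average. The median fold, which is the ratio of both quantities after a pseudocount of 1, was 3.73, 4.42 and 3.69 with 1 MLX-WT library and 3.86, 4.62 and 3.70 with 2. The fold difference was 0.114 ± 0.103, and in MLX-DN replicate 3 it was 0.00196. With 0 MLX-WT libraries the median fold was 3.87, 4.27 and 3.70, so over the step from 0 to 1 it was higher in 1 of 3 libraries. The members with 2 MLX-WT libraries had more ChIP reads and more control reads at much the same ratio. The part of control background in the rank difference was not tested.

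**Figure D4:**
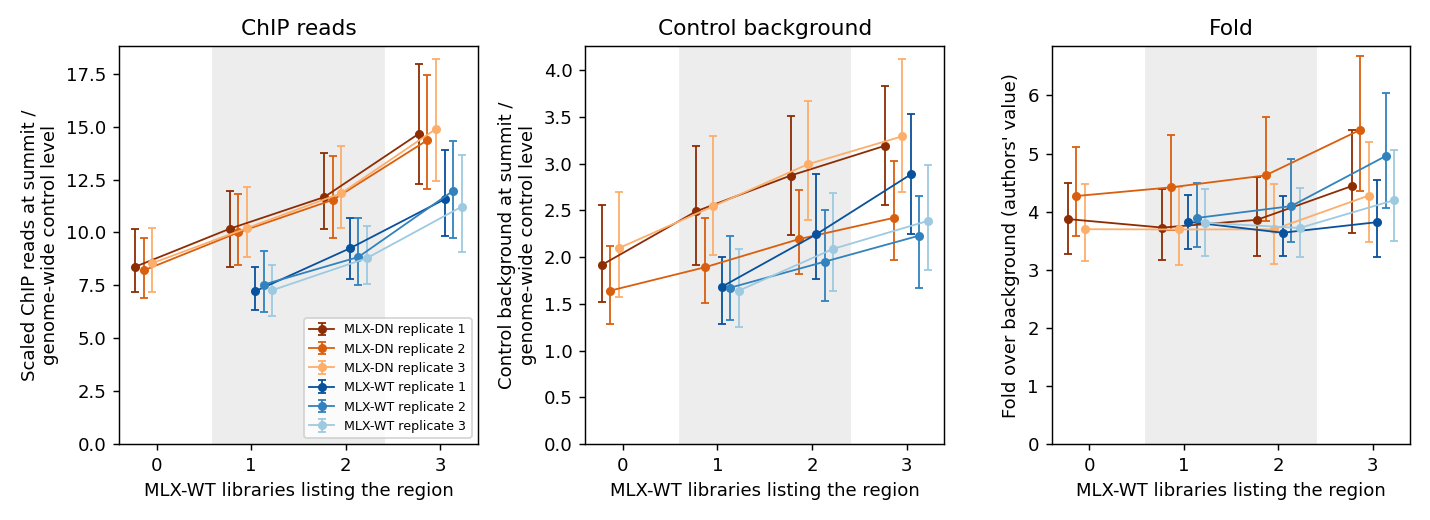
Scaled ChIP reads at the summit over the genome-wide control level (left), control background over the same level (middle) and the authors' fold (right) against the number of MLX-WT libraries listing the region. Points are medians of single libraries, bars the middle 50% of regions, and the grey band marks the members. ChIP reads and background are higher at 2 than at 1 MLX-WT library in all 6 libraries; the MLX-DN fold differs by 0.114 on average.

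Where MLX-WT libraries did list a member, they held fewer reads than MLX-DN. The scaled ChIP level at regions with 2 MLX-WT libraries was 9.25, 8.84 and 8.79 times the genome-wide control level in MLX-WT replicates 1, 2 and 3, against 11.7, 11.5 and 11.9 in MLX-DN. All MLX-DN medians were above all MLX-WT medians. The rule asks for all MLX-DN lists but not for all MLX-WT lists, so this order can be partly built in. The MLX-DN medians cover all 2279 regions, and those of MLX-WT replicates 1, 2 and 3 only the 610, 2161 and 1787 listed. At regions of all 6 libraries the levels were 11.6, 12.0 and 11.2 in MLX-WT and 14.7, 14.4 and 14.9 in MLX-DN, so a gap of this kind was present outside the members too. The control background was also lower beneath the MLX-WT peaks of members with 2 libraries than beneath the MLX-DN peaks of the same class on average, 2.09 ± 0.146 against 2.69 ± 0.431 (mean and SD, n = 3), with MLX-WT replicate 1 at 2.24 and MLX-DN replicate 2 at 2.19. The median fold in that class was 3.64, 4.10 and 3.72 in MLX-WT, within the range of 3.70 to 4.62 of MLX-DN for replicates 2 and 3 and just under it for replicate 1.

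Summits of the 2 groups lay close together, which the rule partly builds in. The position of a summit did not enter the rule, but both groups needed a peak in the same merged region. Across groups, 53.6% to 62.9% of summits were within 100 bp at regions with 1 MLX-WT library, and 61.6% to 65.9% at regions with 2. Within MLX-DN the shares were 60.1% to 62.9% and 65.8% to 68.6%. No distance for random placement was computed. At regions with 2 MLX-WT libraries the median distance between summits was 59.0 to 62.0 bp for the 3 pairs of MLX-DN libraries, 63.5 to 71.0 bp for the 9 pairs of 1 MLX-DN and 1 MLX-WT library, and 66.5 to 80.0 bp for the 3 pairs of MLX-WT libraries. Pairs across the groups lay between the pairs within each group, and overlapped those within MLX-WT. At regions with 1 MLX-WT library the distances were 69.0 to 72.5 bp within MLX-DN and 68.5 to 90.0 bp across groups. The 3 pairs with MLX-WT replicate 3 had 85.0 to 90.0 bp, and MLX-DN replicate 3 with MLX-WT replicate 1 had 85.0 bp. At regions of all 6 libraries the distances were 54.0 to 67.0 bp over all pairs. Pairs share libraries and were not tested.

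MLX-WT peaks lay on the bases that all MLX-DN libraries shared. At 3871 members at least 1 MLX-WT peak overlapped bases covered by all 3 MLX-DN lists, which is 95.2% of the members. The rule already asks for an MLX-WT peak in the region, which leaves little room for a lower share. Single MLX-WT libraries that listed a region overlapped the shared bases at 91.8% to 95.8% of members of either class and at 97.9% to 99.00% of regions of all 6 libraries. At 94 members the 3 MLX-DN lists had no base in common, since neighbouring peaks had been chained into a region. The shared stretch had a median length of 337 bp. The MLX-WT summit fell inside it at 75.5% to 75.8% of regions with 1 MLX-WT library, at 82.7% to 85.2% of regions with 2, and at 92.6% to 93.4% of regions of all 6 libraries. At 196 members, among them the 94 without a shared base, no MLX-WT peak touched a shared stretch.

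Libraries that did not list a member had no other peak within 1 kb of it in most cases. MLX-WT replicate 1 had a peak within 1 kb of 11.8% of the regions with 1 MLX-WT library that it did not list, and of 13.0% of those with 2. For MLX-WT replicate 2 the shares were 30.3% and 28.8%, and for replicate 3 they were 19.3% and 19.5%. At regions of no MLX-WT list they were 8.23%, 22.5% and 13.7% for replicates 1, 2 and 3. A region of all 6 libraries lay within 5 kb of 14.4% of members with 1 MLX-WT library and of 14.04% of members with 2, against 11.3% of regions with none. Another member lay within 5 kb of 23.9% and 19.9% of the classes with 1 and 2 libraries.

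Members were found on all 20 chromosomes, and their make-up differed among them. The share of regions of all MLX-DN libraries that were members ranged over the autosomes from 39.7% on chromosome 17 to 48.5% on chromosome 1. On chromosome X it was 28 of 56, with an exact 95% interval of 36.3 to 63.7 that holds all autosome shares. Among the members the share with 2 MLX-WT libraries was 56.04% over the genome (exact 95% interval 54.5 to 57.6). It was highest on chromosome 10, with 126 of 184 (68.5%, 61.2 to 75.1). On the autosomes it was lowest on chromosome 8, with 112 of 225 (49.8%, 43.1 to 56.5). Chromosome X had 13 of 28 (46.4%, 27.5 to 66.1). Chromosome 13 had 88 of 176 and chromosome 15 had 134 of 217 (61.8%).

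Over the autosomes the share with 2 MLX-WT libraries moved with the control background. At regions of all 6 libraries, relative to the library mean, the MLX-DN over MLX-WT ratio of background was 0.791 on chromosome 15, between 0.918 and 0.998 on 11 autosomes and between 1.13 and 1.26 on chromosomes 1, 3, 4, 5, 8, 9 and 12. On those 7 chromosomes 853 of 1610 members had 2 MLX-WT libraries (53.0%, 50.5 to 55.4), and on the 11 others 1279 of 2212 (57.8%, 55.7 to 59.9). Over the 19 autosomes the share and the ratio had a Pearson r of −0.64 and a Spearman rho of −0.66, a description of chromosomes that share the same 6 libraries. Chromosome X was left out. Its ratio was 0.862, below that of the 11 autosomes, and its share of 46.4% was below that of every autosome. The part of background in the shares was not tested. The MLX-DN rank difference on the 11 autosomes was 9.80 ± 1.42 points, against 9.76 on all. These autosomes were picked by the ratio between the groups. The value therefore cannot decide the part of background differences between the classes within MLX-DN lists.

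**Figure D5:**
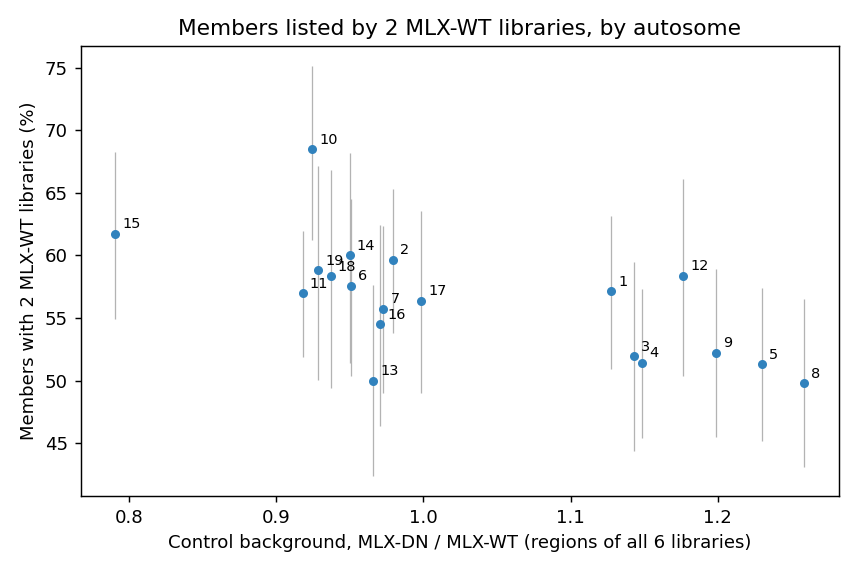
Share of members with 2 MLX-WT libraries (vertical axis, %, with exact 95% binomial intervals) against the MLX-DN over MLX-WT ratio of control background at regions of all 6 libraries (horizontal axis), for the 19 autosomes. Chromosome 10 is highest at 68.5% and chromosome 8, with the highest ratio of 1.26, is lowest at 49.8%.

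The strongest members were rare, and some of them lay in a short stretch of chromosome 8. Only 92 members (2.26%) were among the strongest 10% of peaks in every MLX-DN list, 18 with 1 MLX-WT library and 74 with 2, against 698 of the 3107 regions of all 6 libraries. MLX-WT replicate 1 lacked 68 of the 92, replicate 3 lacked 32 and replicate 2 lacked 10. Chromosome 8 held 18 of the 92, of which 11 started between 86 and 88 Mb, and it held 225 of all 4067 members. The same count was not made for the 698 regions. In that stretch 48 of 85 regions of all MLX-DN libraries were members, against 4067 of 9119 over the genome. The median control background beneath these 48 was 7.98, 6.09 and 8.64 times the genome-wide level in MLX-DN replicates 1, 2 and 3, and 2.44, 2.20 and 2.39 times in MLX-WT replicates 1, 2 and 3 where listed. Beneath the other members it was 2.12 to 2.77 times in MLX-DN. Of the 60 members whose background was over 5 times the genome-wide level in all 3 MLX-DN lists, 58 were on chromosome 8. Regions outside the members were not counted in this way, so the background is not shown to be particular to members. The median fold at the 48 was 3.12, 3.63 and 2.90 in MLX-DN, below the 3.76, 4.54 and 3.70 of the other members, while their reads were higher, 82.5, 92 and 88 against 37.0, 42.0 and 41.0. Reads and ranks at these regions are counted over backgrounds that differ this much between the groups. The part of background in the listing of these regions was not tested, and neither was a difference in DNA copy number between the lines. Without chromosome 8 the rank difference was 9.30 points and the width difference 48.0 bp.

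Of the members with 2 MLX-WT libraries, the highest in MLX-DN rank was on chromosome 8 from 87822840 to 87824118 (mm9, counted from 1). It stood at percentiles 98.97, 99.7 and 99.4 in MLX-DN replicates 1, 2 and 3, with 134, 156 and 163 reads. MLX-WT replicates 2 and 3 listed it at percentiles 95.6 and 35.8, with 62 and 34 reads. Control background there was 9.50, 7.03 and 11.1 times the genome-wide level in MLX-DN and 2.51 and 3.28 times in MLX-WT replicates 2 and 3, and folds were 4.12, 5.50 and 3.95 in MLX-DN, against 5.88 and 2.96 in MLX-WT. The second was close by, from 87504071 to 87505390. Its folds of 5.32 and 4.93 in MLX-WT replicates 2 and 3 were above the 4.55, 4.73 and 3.94 of MLX-DN, over backgrounds of 2.02 and 2.16 against 8.30, 7.56 and 9.58 times the genome-wide level. The third was on chromosome 12 from 55963207 to 55963893, where background was 2.87, 1.97 and 2.47 times the genome-wide level in MLX-DN. Its folds were 6.95, 10.1 and 8.38 in MLX-DN, against 6.41 and 4.92 in MLX-WT replicates 2 and 3, with 73, 88 and 83 reads against 47 and 33. The fourth, on chromosome 12 from 112775521 to 112776131, had a MLX-WT replicate 1 peak 304 bp away. The fifth, on chromosome 9 from 116083450 to 116084714, ranked in MLX-WT replicates 2 and 3 at 98.9 and 94.7, near its MLX-DN percentiles of 98.9, 98.8 and 98.3. The nearest MLX-WT replicate 1 peak lay 152508 bp from it. All 5 were missing from replicate 1 alone.

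Of the members with 1 MLX-WT library, the highest in rank was also on chromosome 8, from 87363912 to 87364552, at percentiles 99.6, 99.7 and 99.5 in MLX-DN and 98.2 in MLX-WT replicate 2. Its fold was higher in MLX-WT replicate 2, at 8.18, than in MLX-DN, at 5.27, 6.21 and 4.32, and its background lower, at 1.69 against 7.18, 5.45 and 9.28 times the genome-wide level. It was followed by chromosome 8 from 86090511 to 86091384, which MLX-WT replicate 3 alone listed, at percentile 29.4 with 33 reads against 137, 129 and 122 in MLX-DN. Background beneath it was 3.28 times the genome-wide level in that library and 7.98, 6.05 and 9.88 times in MLX-DN, and folds were 2.87 against 4.98, 5.26 and 3.34. A stretch of chromosome 4 from 122711041 to 122712960 had folds of 7.68, 7.80 and 7.98 in MLX-DN and 4.36 in MLX-WT replicate 2, the only MLX-WT library to list it. A stretch of chromosome 5 from 31930054 to 31932198 was covered over 2060, 2051 and 2095 bp in MLX-DN and over 313 bp in MLX-WT replicate 1, with folds of 6.81, 9.15 and 6.19 against 3.81. MLX-WT replicate 2 had a peak 609 bp from it. A stretch of chromosome 2 from 29904408 to 29905561 had folds of 6.07, 7.76 and 5.63 in MLX-DN and 3.91 in MLX-WT replicate 2.

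The rarer patterns had strong members too. MLX-WT replicates 1 and 2 without 3 listed chromosome 16 from 20097635 to 20098244, with 62, 90 and 86 reads in MLX-DN, against 41 and 48 in MLX-WT. MLX-WT replicates 1 and 3 without 2 listed chromosome 16 from 45335867 to 45336635, with folds of 7.36, 8.75 and 7.55 in MLX-DN, against 4.62 and 4.69 in MLX-WT. The library that lacked it, MLX-WT replicate 2, had a peak 583 bp away.

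At the 6 widest members named here the MLX-DN peaks covered more bases than the MLX-WT peaks. The widest, on chromosome 3 from 40986036 to 40990250, was 4215 bp across. MLX-DN peaks covered 3799, 3801 and 3707 bp of it, while MLX-WT replicates 2 and 3 covered 272 and 890 bp. On chromosome 2, positions 165681540 to 165685474 were covered over 2981, 3864 and 3164 bp in MLX-DN, against 554 and 423 bp in the same MLX-WT libraries. On chromosome 17 from 7836061 to 7839760 the MLX-DN peaks covered 2880, 3380 and 3011 bp and the MLX-WT peaks 298 and 457 bp, with 40, 55 and 50 reads at the summit in MLX-DN, against 24 and 18 in MLX-WT. Chromosome 7 held the widest with 1 MLX-WT library, from 117929354 to 117932691. There MLX-DN covered 1538, 3276 and 2329 bp and MLX-WT replicate 2 covered 279 bp. The next 2 were on chromosome 6 from 91569761 to 91572729 and on chromosome 15 from 101196049 to 101198966, where the MLX-WT replicate 2 peaks covered 258 and 1460 bp. MLX-DN peaks covered 1413, 2204 and 2279 bp of the first and 2566, 2803 and 2013 bp of the second. The 1460 bp was the most that MLX-WT replicate 2 covered in any member that it alone of the MLX-WT libraries listed. These regions were named for their union width, which the MLX-DN peaks largely set.

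At the other end, the weakest member by its lowest MLX-DN percentile was on chromosome 15 from 89305963 to 89307146, with a fold of 1.93 in MLX-DN replicate 1 against 3.29 and 2.84 in replicates 2 and 3. The region on chromosome 7 from 53856728 to 53857356 had 21, 26 and 20 reads in MLX-DN, against 21 and 25 in MLX-WT replicates 1 and 3. The weakest with 1 MLX-WT library were on chromosome 11 from 105153343 to 105154432 and on chromosome 17 from 71078367 to 71078957, the second tied in its lowest MLX-DN percentile with a region on chromosome 12. MLX-DN folds there were 2.03 to 3.22 and 2.16 to 3.78. Just outside the rule, the highest ranking region of no MLX-WT list was on chromosome 8 from 93947430 to 93948353, at 75, 85 and 93 reads in MLX-DN. The lowest ranking region of all 6 libraries was on chromosome 6 from 108733086 to 108733771. It stood at percentiles 83.2, 84.4 and 0.201 in MLX-DN, against 18.3, 70.2 and 41.3 in MLX-WT.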

How the data were processed

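H4ac ChIP-seq peak lists of 6 C2C12 libraries, 3 MLX-DN and 3 MLX-WT, were analysed, with groups and replicate numbers taken from the sample titles. The submitters' processing notes give the mm9 build. They name MACS2 2.0.9, BWA 0.5.9-r26, SAMtools, Picard 1.65, CASAVA and R 2.14.0, with no roles or settings. Each deposited list holds 1 library, so peaks were called per sample. The authors deposited, per peak, its fold (a ratio over background), −log10 p-value, −log10 q-value and summit offset in bp. A deposited score repeats the −log10 q, multiplied by 10 and with decimals dropped.

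Peaks were merged and ranked in Python 3.11.15 with pandas 2.3.3, and tests and intervals used SciPy 1.17.1. A region's values in a library are those of its highest peak by q. For each library a ChIP scale factor (0.848 to 1.00) was found at which 100% of peaks had a read number that was whole and met both fold and p, to 0.001 in −log10 p; at other factors 0.133% to 5.87% matched in the first 1500 peaks. The lowest background of a list was taken as the genome-wide control level, and this level over the scale factor as ChIP depth. Merging, listing, read recovery and the sign-flip test were checked on simulated lists of isolated regions with at most 1 peak per library. The other steps were not checked in this way. For 3 differences of the same sign the exact sign-flip permutation test gives p = 0.25 whatever their spread. That p therefore reflects agreement in sign only. The spread between these libraries is given as SD and may be technical.

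Named regions were, for each class, the 5 highest by lowest MLX-DN percentile, the 3 widest and the 2 lowest, the highest of each MLX-WT pattern, and 1 region on either side of the rule. The members and lists were chosen with earlier results of these data known. Genes and sequences are not given, since no mm9 genome or annotation was used here. Alternatives are given at the end.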

Additional observations from a re-analysis of the deposited data

How the results depend on the processing

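The mean MLX-DN rank and width differences kept their sign under all 17 and 16 alternatives run. These counts include the setting with no replicate block, which could not change the differences. For width with 50% cover 1 of 3 libraries was at −0.50 bp. The mean differences ranged from 4.22 (rank by fold) to 18.4 points and from 5.17 bp (50% cover) to 180 bp. The highest values came from leaving out an MLX-WT library: regions of both remaining libraries then include those of all 6. Counts changed under all 14 alternatives run for them, and members ranged from 849 to 5366. At equal list length there were 849 members, 323 with 1 and 526 with 2 MLX-WT libraries, and on the 11 autosomes of near-even background 2212, 933 and 1279. With 50% cover 1469 had 2. With 1 library left out, members ranged from 2274 (without MLX-WT replicate 1) to 5366, those with 1 MLX-WT library from 1976 to 3167 and those with 2 from 2355 to 4777. The rank difference in MLX-WT lists was 10.02 points at equal list length, 11.7 on the 11 autosomes and −0.90 by fold. With 1 library left out it ranged from 13.7 to 28.9 points, and the MLX-WT width difference from 54.5 to 174 bp. A common −log10 p threshold of 4.22, reads scaled to the shallowest library together with a −log10 p of at least 5, and leaving out chromosome 8 were chosen after seeing the data and gave 4033, 3818 and 3842 members. No paired analysis of MLX-DN against MLX-WT was possible because the rule used that contrast and its values come from no test. The 2 classes were compared within each library; with no replicate block, which by construction changes only the p, the differences were 9.76 points (exact permutation p = 0.30) and 51.3 bp in MLX-DN, and 14.5 points and 57.3 bp in MLX-WT. The smallest read number of a listed peak was 13 to 16 over the 6 lists, with 16 in MLX-WT replicate 1. Acetylation giving fewer reads than the smallest of a list could not be detected in that library. These are lower limits, since the p also depends on the local background.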
